A study of Mus musculus with 142 samples.

Results

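The C-TSS deletion removes a short segment inside the gene Morc1, in the Dppa2/4 replication domain of mouse chromosome 16, and it was made once on each parental allele of the same hybrid line. Clone C12 carries it on the musculus allele and clone C4 on the CAST allele, and each clone was profiled in 2 cultures, which gave 4 cultures with 1 deleted and 1 unmodified allele each (8 of the series' 142 samples, since the early and the late S-phase fraction of a culture are separate samples). The members were chosen by their label alone. All cells were F121-9 (CASTx129) mouse embryonic stem cells, a line from a cross of the castaneus strain CAST with a musculus strain. The chromosome copies from these parents are called the CAST allele and the musculus allele. The cells were grown in 2i and LIF and labelled with BrdU for 2 h before sorting. No other deletion was listed for either clone, so within a culture the unmodified allele is the control. C12 and C4 are 1 clone each and their cultures repeat that clone. Within these 2 clones the p-values below therefore measure the spread between cultures. Where other clones are compared, the units are clones or libraries. A difference that the deletion makes cannot be told apart from an allele-specific difference between these 2 clones.

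Replication timing is the order in which chromosome domains are copied during S phase. Domains that hold active genes tend to replicate early and gene-poor, lamina-associated domains late. Early replication control elements (ERCEs) are stretches of DNA that a domain needs to replicate early, and in this domain they are segments A, B and C, which hold sites bound by the pluripotency factors Oct4, Sox2 and Nanog (OSN sites) as well as transcription start sites. The C-TSS deletion takes the start-site part of segment C and leaves its OSN sites 1, 2 and 3 in place, so the question it asks is how early the domain replicates without that part. Making it on either allele allows a second question, namely how much of a musculus to CAST difference belongs to the strain and how much to the deletion.

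The deletion was made with a pair of guides, and both are shown because their cuts fix what was lost (mm10, coordinates by exact match to GRCm38, PAM in capitals). C-TSS-G1 lies at chr16:48611106-48611128 on the plus strand and C-OSN-1-G1 at chr16:48613166-48613188 on the minus strand.
C-TSS-G1: ttctggccatgtttggttagAGG
C-OSN-1-G1: gagtaactcaggcaaaacgtTGG
Cuts 3 bases from each PAM remove chr16:48611123-48613171, which is 2049 bp, and join 15 bases on the left (lower case, chr16:48611108-48611122) to 15 on the right (capitals, chr16:48613172-48613186) as follows on the reference.
C-TSS predicted junction: ctggccatgtttggtTTTTGCCTGAGTTAC
This is the C57BL/6J reference and not the sequence of either allele, and repair may have added or removed bases. The first base to the right of the deletion is the first base of the C-OSN-1 segment.

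The lost segment lies within Morc1 (chr16:48431237-48630900, plus strand), a germ-cell gene needed for spermatogenesis that is also active in mouse embryonic stem cells. It holds coding exon 21 of the main Morc1 transcript (chr16:48612289-48612361, 73 bp) and is otherwise intronic. RefSeq also lists an antisense long non-coding RNA, Gm41458 (chr16:48600118-48613840, minus strand), across the whole segment, with its annotated start in C-OSN-1. None of the transcripts listed by GENCODE vM21 or RefSeq begins inside the deletion (0 transcripts). No other annotation was searched, and which start site the label names was not settled from these. The segment is 44.6% G and C with 18 CpG dinucleotides, against medians of 40.7% and 13 over 46365 tiles of its length on chromosome 16. The octamer ATGCAAAT, searched on both strands, is found 0 times in it and in 17.1% of those tiles. It is found 0 times in C-OSN-1, 2 and 3 as well, so its absence does not set C-TSS apart from them.

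Values are log2 of early over late reads in 50 kb windows, so positive is early. The 8 profiles held values in 41597 to 46217 of 49264 autosomal windows, and the number of reads behind them is unknown. Both cultures numbered 2 had fewer windows than those numbered 1, and their profile medians were between -0.01 and 0.05 against -0.18 to -0.11. Across the genome, profiles of the same allele and culture number but of different clones correlated at 0.948 to 0.978, and the cultures of 1 clone at 0.939 to 0.963. These ranges overlap. In culture 1 of C4 both alleles correlated more with the other culture of the same clone, and in the other cultures the order was the reverse. The number therefore went with the values in part, and each result is given by culture.

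In all 8 profiles the Dppa2/4 domain replicated early between 2 late flanks, whether or not the allele carried the deletion. Over the domain core (48.2 to 48.6 Mb, 8 windows, holding Dppa2, Dppa4 and the start of Morc1) the deleted musculus allele of C12 had means of 0.68 and 1.14 in cultures 1 and 2, and the unmodified musculus allele of C4 had 0.96 and 1.01. The deleted cultures lay on both sides of the unmodified ones, and their difference of -0.07 was within the spread (exact two-sided permutation test, p = 1, where 2 against 2 cultures cannot go below 0.333). On CAST, the deleted allele of C4 had 1.30 and 1.06 and the unmodified allele of C12 1.04 and 1.29. These overlapped too, with a difference of 0.02 (exact permutation test, p = 0.667). The only other unmodified musculus allele of the series, in the clone C-Right-11.8k with a larger deletion on CAST, had 1.02.

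**Figure D1:**
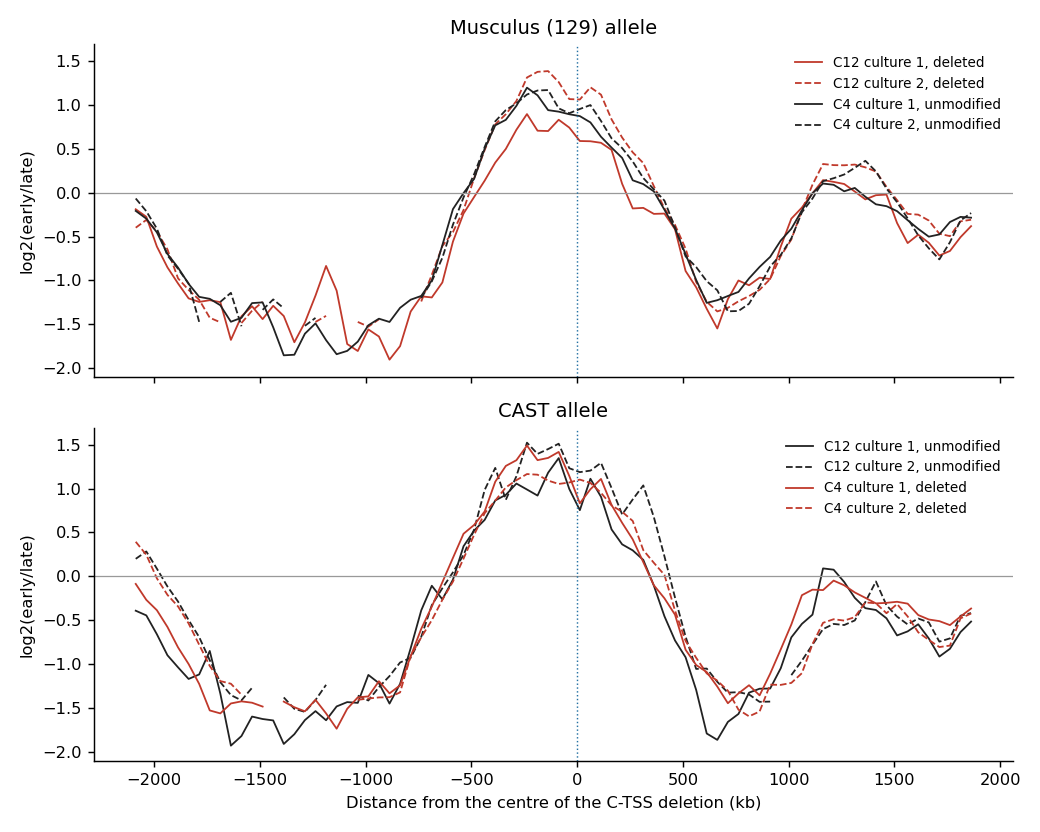
Replication timing, as log2 of early over late, over 80 windows of 50 kb against the distance in kb from the centre of the C-TSS deletion (dotted line), for the musculus allele (top) and the CAST allele (bottom). Red lines are alleles with the deletion, black lines unmodified alleles, solid lines cultures 1 and dashed lines cultures 2. All 8 profiles rise above 0 around the deletion and fall below 0 on both sides.

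The CAST allele allowed a wider comparison, because most clones of the series have an unmodified one. The 42 clones with an unmodified CAST allele, C12 among them, had core means of 0.70 to 1.30 with a median of 1.02, and the deleted CAST allele of C4 had 1.18. It was earlier than 40 of the 42, by 0.18 over their mean of 1.00 ± 0.13 (SD), which did not pass the test (exact two-sided permutation test with clones as units, p = 0.186, smallest possible 0.0233). All of these clones carry a deletion on musculus and some derive from one another. Over wider intervals the deleted CAST allele of C4 stood out less. From 48 to 49 Mb the difference was 0.12, and it was earlier than 36 of the 42. From 47.5 to 49.5 Mb the difference was 0.01, and it was earlier than 24 of the 42. With profiles centred on their median the core difference was 0.23. Without centring, the core difference also varied between cultures. With culture 1 of C4 left out the difference was 0.06 (exact permutation p = 0.698), and with culture 2 left out it was 0.30 (exact permutation p = 0.0698).

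**Figure D2:**
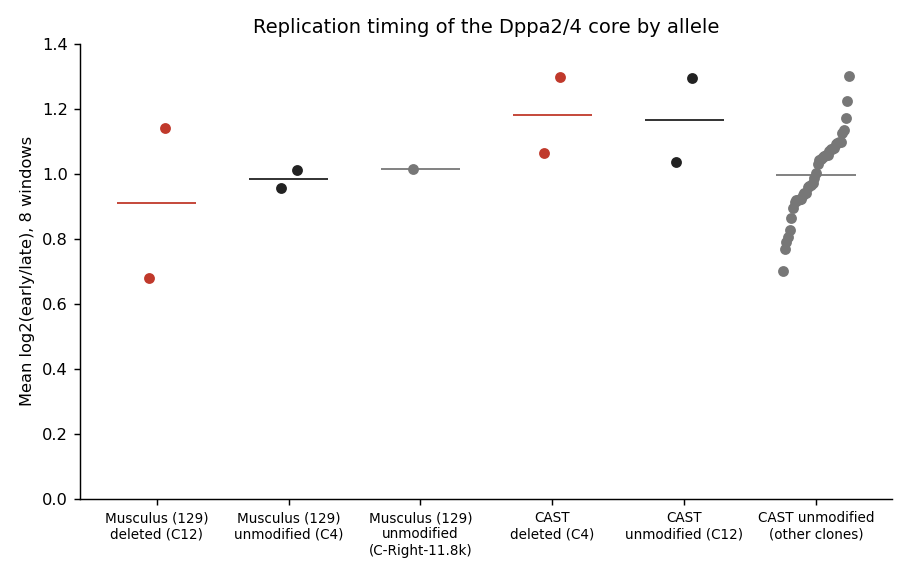
Mean log2 of early over late across the 8 core windows for each allele, with 1 point per library, or per clone in the last column, and a horizontal line at the mean. The deleted alleles (red) lie at 0.68 and 1.14 on musculus and at 1.06 and 1.30 on CAST, on both sides of or overlapping the unmodified alleles of the same strain.

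To separate strain from deletion, the musculus minus CAST difference of each culture was split into components. The strain component is its mean over the clones, the part of the difference that does not turn with the deleted allele. It also holds any allele-specific difference of either clone, which cannot be told apart from strain within these cultures. The deletion component is the mean over the clones of the deleted minus the unmodified allele. The remaining one, the clone component, is C12 minus C4 over the mean of both alleles. They were fitted with limma across 37253 windows in which all 8 profiles had a value, 63 of them among the 80 windows from 46.5 to 50.5 Mb.

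The strain component was the largest of them. It passed the test (adjusted p at most 0.05) in 22 of the 63 windows, against 21.1% of the windows tested across the autosomes. In 11 of these musculus was later than CAST (10.3% across the autosomes) and in 11 it was earlier (10.9%). The later windows were 8 adjoining ones at the left border of the domain, from 47.85 to 48.25 Mb, and single or paired windows at 48.50, 48.85 and 48.90 Mb. The earlier windows all lay between 49.45 and 50.10 Mb, in and beside a second domain to the right. All 22 had the same sign in each of the 4 cultures, as did 42.5% of the windows tested across the autosomes. The 22 were selected by a test on these same cultures, so this agreement follows largely from the selection.

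Across the test interval (47.5 to 49.5 Mb) the mean musculus minus CAST difference was -0.24 and -0.21 in cultures 1 and 2 of C12, where the musculus allele is deleted, and -0.19 and -0.09 in those of C4, where CAST is deleted. Musculus was later in 4 of 4 cultures, so the sign did not follow the deletion. The strain component was -0.18 ± 0.07 (SD over cultures, n = 4), and the exact sign-flip permutation test gave p = 0.125, the smallest it can give. Taken as a signed area in log2 units times 100 kb, musculus minus CAST came to -4.91 and -4.34 in C12 and to -3.82 and -1.90 in C4. The strain component of the area was -3.74 (exact sign-flip permutation p = 0.125).

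The largest strain difference was at 47.90 Mb, where it was -0.71 ± 0.10 (SE, adjusted p = 0.0022 by limma). Within cultures 1 it was -0.87 and within cultures 2 -0.56, so the left border was later on musculus in both. At 48.50 Mb it was -0.34 ± 0.10 with -0.50 in cultures 1 and -0.17 in cultures 2.

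The deletion component passed the test in 0 of the 63 windows by limma, as in 0% of all windows tested. At an unadjusted p of 0.05 it was 1 of 63, beside 2.79% of all windows. Over the test interval the deleted minus unmodified difference was -0.24 and -0.21 in C12 and 0.19 and 0.09 in C4. The clones moved in opposite directions, and their mean of -0.04 was smaller in size than the strain component. The SD of these values over cultures, 0.22 (n = 4), also holds the strain component, whose sign turns between the clones here. It is therefore not the spread of the deletion component. The area gave -0.88 (exact permutation test of 2 against 2 cultures, p = 0.333, the smallest possible), with -0.54 from cultures 1 and -1.22 from cultures 2.

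In 0 of the 63 windows did the deleted minus unmodified difference have 1 sign in all 4 cultures, while the musculus minus CAST difference did in 43 of them. Across the autosomes these were 5.84% and 42.5% of windows. No window can show both patterns, because the C4 values enter the first count with their sign turned. The 0 therefore follows where the strain difference is the larger, and it does not measure the deletion. The deletion component exceeded the strain component in size in 4 of the 63 windows (26.5% across the autosomes), and it reached 0.2 in size in 1 window (4.63% across the autosomes), against 41 for the strain component. Of the summed squares of the 3 components over the 63 windows, strain held 86.1%, clone 9.09% and deletion 4.79%. Over all windows tested these shares were 62.7%, 30.1% and 7.18%.

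**Figure D3:**
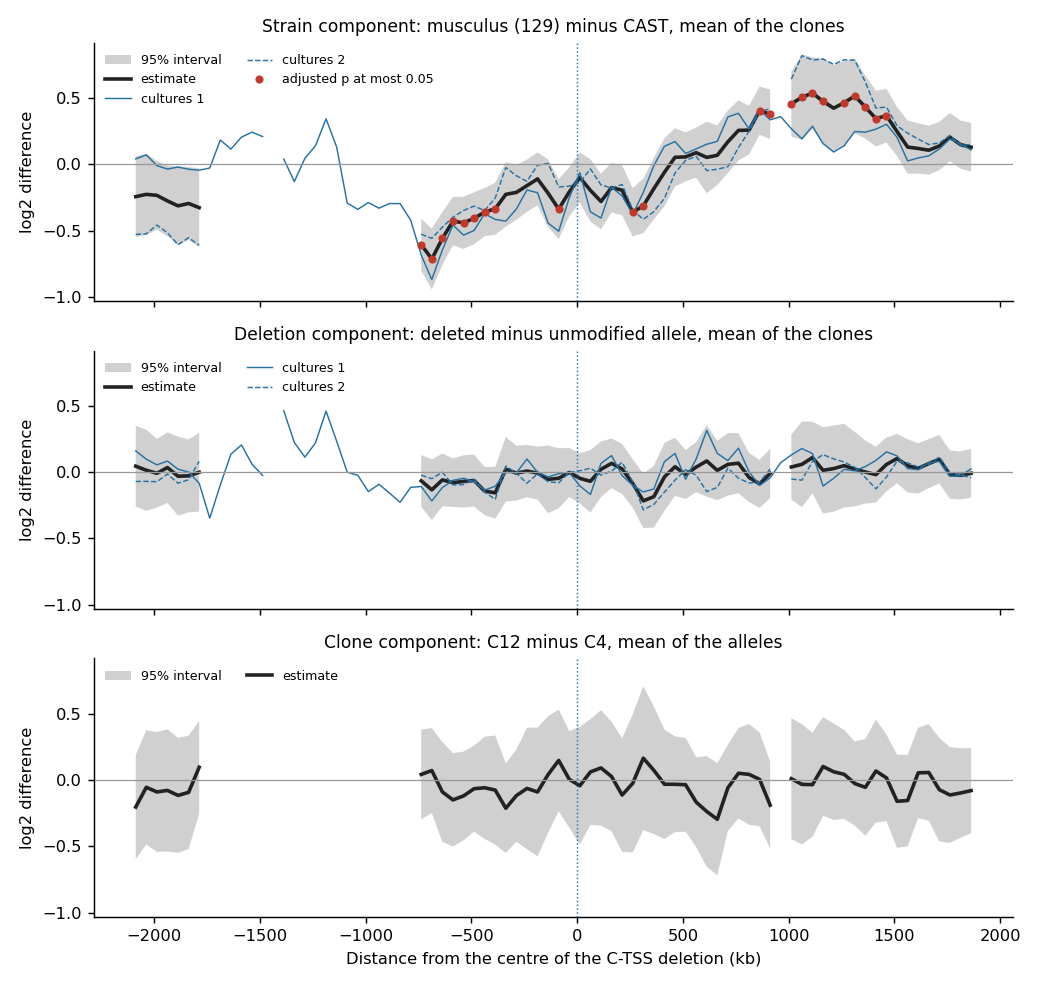
Strain, deletion and clone components in log2 units against the distance in kb from the centre of the C-TSS deletion (dotted line). Black lines are limma estimates with their 95% intervals in grey, blue lines the components from cultures 1 (solid) and cultures 2 (dashed), and red points windows whose strain component passed the test, which are 11 below and 11 above 0. The deletion component stays between -0.22 and 0.13.

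The 95% intervals of the deletion component come from the spread between cultures within the 2 clones. Differences between clones are left out of them, so they do not bound the effect of the deletion. In the window that contains the deletion (48.60 to 48.65 Mb, which also holds C-OSN-1, 2 and 3) the deleted minus unmodified difference was -0.16 and -0.12 in C12 and -0.04 and 0.15 in C4. The deletion component there was -0.05 with a 95% interval of -0.24 to 0.14. Over the 8 core windows the intervals reached from -0.35 to 0.27 and all 8 included 0. They included 0 in 62 of the 63 windows, with a median half-width of 0.21. Effects smaller than about this width were not detectable with 4 cultures, and larger ones could be missed too. The intervals are per window and unadjusted, whereas the test adjusts over all windows. Across the autosomes deletion components ranged from -0.91 to 0.79, and 0 passed it.

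The window whose interval left out 0 was that at 48.90 Mb, at the right border of the domain. Deleted minus unmodified was -0.36 and -0.70 in C12 and 0.06 and 0.13 in C4. Beside a strain component of -0.31 there, the deletion component of -0.22 cannot be assigned to either clone alone. Its 95% interval was -0.42 to -0.01, with an unadjusted p of 0.0419 and an adjusted p of 1.00 by limma. This was the lowest deletion component of the 63 windows. The highest was 0.13 at 47.00 Mb (95% interval -0.10 to 0.36).

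The borders were also measured as the points where each profile crosses 0. On musculus the early span was 705 and 887 kb in C12, where it is deleted, and 902 and 905 kb in C4. On CAST it was 927 and 1037 kb in C12 and 968 and 990 kb in C4, where it is deleted. The span was shorter on musculus than on CAST in 4 of 4 cultures, by 131 ± 70.4 kb on average (SD, n = 4, exact sign-flip permutation p = 0.125). The left crossing lay 108, 89.9, 89.2 and 48.6 kb further right on musculus in C12 cultures 1 and 2 and C4 cultures 1 and 2. The right crossing differed by -114 and -59.4 kb in C12 and by 23.0 and -36.9 kb in C4, where negative means further left on musculus.

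The deletion component of the span was -54.9 kb, that is, shorter on the deleted allele in C12 by 222 and 149 kb and longer on it in C4 by 66.2 and 85.5 kb. The clones did not overlap in musculus minus CAST, and the exact permutation test of 2 against 2 cultures gave p = 0.333, the smallest possible. The C12 value rests in part on the deleted allele of culture 1, whose span of 705 kb was the shortest of the 8.

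The earliest window of the test interval lay between 48.35 and 48.50 Mb in all 8 profiles. Its value was 0.897 and 1.387 on the deleted musculus allele and 1.197 and 1.171 on the unmodified one. On CAST it was 1.490 and 1.165 on the deleted allele and 1.347 and 1.523 on the unmodified one. On both strains the deleted and unmodified cultures overlapped.

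The 14 protein-coding genes that start between 46.5 and 50.5 Mb were read at the window of their start, which gave 11 windows. The deletion component passed the test at 0 of the 14 starts and the strain component at 2. Dppa4 and Dppa2 encode SAP-domain DNA-binding proteins that mark pluripotent cells. At Dppa4 (window 48.25 Mb) deleted minus unmodified was -0.43 and 0.02 in C12 and 0.43 and 0.07 in C4, and the deletion component was 0.02 (95% interval -0.22 to 0.27). At Dppa2 (48.30 Mb, the window that also holds the A-TSS segment) it was -0.34 and -0.09 in C12 and 0.33 and 0.08 in C4, with a deletion component of -0.01 (95% interval -0.21 to 0.20). Both clones showed the earlier allele to be CAST in culture 1, and in culture 2 the alleles differed by less than 0.1.

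At the start of Morc1 (48.40 Mb, shared with the uncharacterised gene Gm5485 and the B-TSS segment) the deleted alleles had 0.71 and 1.38 on musculus and 1.32 and 1.16 on CAST, and the unmodified alleles 1.11 and 1.17 on musculus and 0.92 and 1.40 on CAST. The deletion component was -0.01 (95% interval -0.21 to 0.19). The gene that loses an exon thus replicated early at its start on all 8 alleles.

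To the right of Morc1, Trat1, an adaptor of the T-cell receptor complex, had a strain component of -0.18 ± 0.08 (SE) and a deletion component of 0.07. The resistin-like genes Retnlb and Retnla shared a window with -0.19 ± 0.08 and 0.03. Retnlg, another of these secreted-protein genes, lay at the right border and was 1 of the 2 starts whose strain component passed the test. Musculus minus CAST at Retnlg was -0.47 and -0.42 in C12 and -0.28 and -0.27 in C4, a strain component of -0.36 ± 0.08 (SE, limma adjusted p = 0.0145), and its deletion component was -0.08. Dzip3, a ubiquitin ligase gene, and Cip2a, which encodes an inhibitor of the phosphatase PP2A, start next to each other at 48.95 Mb. Deleted minus unmodified there was -0.13 and -0.60 in C12 and -0.12 and 0.11 in C4, with a deletion component of -0.18 (95% interval -0.42 to 0.05). The myosin gene Myh15 followed with values between -0.73 and -0.24 on all 8 alleles.

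Ift57, a gene of intraflagellar transport, lies in the domain on the right and was the other start whose strain component passed the test, here with musculus earlier. Musculus minus CAST was 0.37 and 0.76 in C12 and 0.01 and 0.88 in C4, and the strain component was 0.51 ± 0.14 (SE, limma adjusted p = 0.0363). At Cd47, which encodes the cell-surface signal that protects cells from phagocytosis, it was 0.05 and 0.86 in C12 and 0.14 and 0.65 in C4 (0.43 ± 0.14, limma adjusted p = 0.0683). At both genes cultures 2 showed most of the difference. Bbx, an HMG-box gene at the far right, had a strain component of 0.15 ± 0.08 and a deletion component of -0.02.

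**Figure D4:**
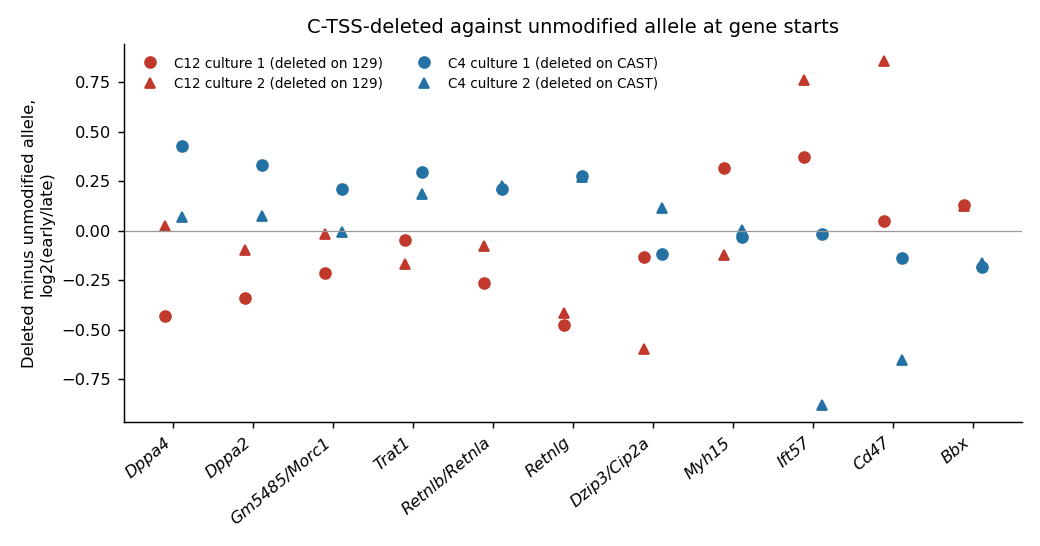
Deleted minus unmodified allele, in log2 of early over late, at the 11 windows that hold the starts of the 14 protein-coding genes, ordered along the chromosome. Red points are the cultures of C12 (deleted on musculus), blue points those of C4 (deleted on CAST), circles cultures 1 and triangles cultures 2. From Trat1 to Retnlg red lies below 0 and blue above it, and at Ift57, Cd47 and Bbx the order is the other way round.

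The domain on the right (49.65 to 50.05 Mb, holding Ift57 and Cd47) shows the strain component away from the deletion, which lies in the neighbouring domain. Musculus minus CAST was 0.25 and 0.75 in C12 and 0.16 and 0.70 in C4, with musculus earlier in 4 of 4 cultures. The strain component was 0.46 (0.20 in cultures 1 and 0.72 in cultures 2, exact sign-flip permutation p = 0.125) and the deletion component 0.03. The other 50 clones with a value had musculus earlier as well, in 50 of 50, with a median of 0.47 and a range of 0.09 to 0.88. The interval was chosen because the paper names it for a castaneus to musculus timing difference shown before. The direction was therefore known beforehand and is not an independent result. Some of these clones also derive from one another. The C-TSS clones differed from them by 0.0022, which the test did not separate (exact two-sided permutation test with clones as units, p = 0.98). The direction of this small difference depends on single cultures.

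On the left flank (46.5 to 47.5 Mb) the cultures disagreed. Musculus minus CAST was 0.19 and -0.37 in C12 and -0.03 and -0.34 in C4, so musculus was later in both cultures 2, and a strain component of -0.13 was within the spread (exact sign-flip permutation p = 0.375). None of its 9 windows with complete values passed the test (0 by limma).

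The clone component passed the test in 0 of the 63 windows by limma (0% across the autosomes), with 0 at an unadjusted p of 0.05 (5.28% across the autosomes). It lay between -0.30 and 0.17. Its area over the test interval was -1.36, with -3.38 from cultures 1 and 0.66 from cultures 2, so the clones had no order that held in both (exact permutation p = 1).

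Another 3 deletions of segment C were set beside these clones. They come from other clones of the same line. The deletions of OSN sites alone are on musculus, as in C12, and C-Right-11.8k is on CAST, as in C4. C-OSN-1 is the segment that begins at the right end of C-TSS (chr16:48613172-48614742). With C-OSN-1 deleted on musculus, the area of musculus minus CAST was -1.28 and 0.40 in 2 clones, and with C-TSS deleted on musculus it was -4.91 and -4.34. The C-TSS cultures were lower by 4.18 without overlap (exact permutation test, p = 0.333, the smallest possible for 2 against 2). With C-OSN-1, 2 and 3 deleted on musculus together, 4 cultures of 1 clone had areas of -7.90 to -5.63. C-TSS on musculus was less negative by 2.53 without overlap (exact permutation test of 2 against 4, p = 0.0667, the smallest possible). That is 1 clone against 1 clone, so the p-value measures the spread between cultures only. The C-OSN-1 test likewise set 2 cultures of 1 clone against 2 clones. Neither test can tell the deletions apart from the clones. The limma fit over all libraries also counts cultures of 1 clone as separate units. In the limma fit over all libraries, 0 of the 63 windows differed from C-OSN-1 (0.0108% across the autosomes, and 6 of 63 against 7.21% at an unadjusted p of 0.05) and 3 differed from C-OSN-1, 2 and 3 (0.234% across the autosomes), all 3 with C12 less late on musculus.

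**Figure D5:**
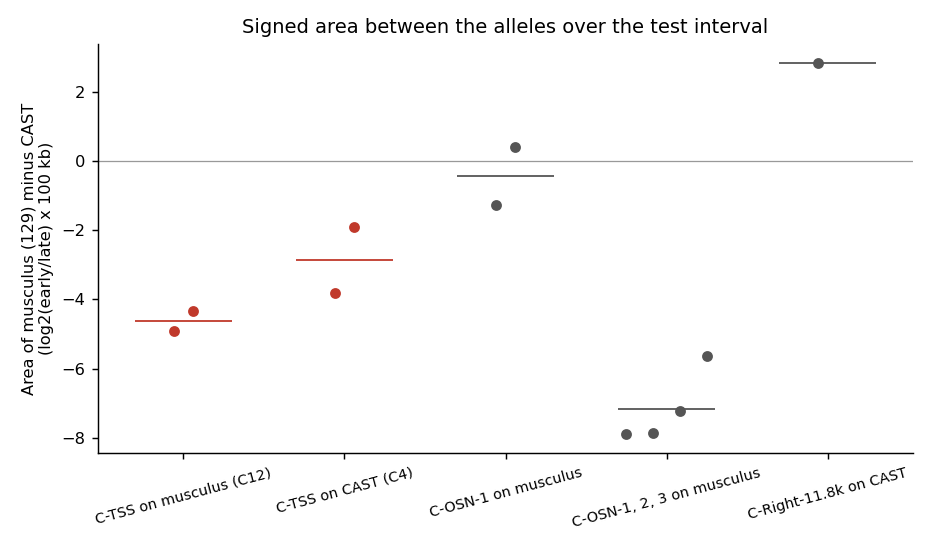
Signed area of musculus minus CAST over the test interval, in log2 of early over late times 100 kb, with 1 point per library and a line at the mean, for the C-TSS deletions (red) and 3 other deletions of segment C (grey). Negative values mean that musculus was later. C-TSS lies below 0 with either allele deleted, at -4.91 to -1.90.

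C-Right-11.8k (chr16:48601345-48613171) is a larger deletion that contains C-TSS together with C-OSN-2 and C-OSN-3, and it was made on CAST in 1 clone. There CAST minus musculus had an area of -2.85, that is, the deleted allele was later. In C4, with C-TSS deleted on CAST, the same area was 3.82 and 1.90, so the deleted allele was earlier in 2 of 2 cultures. The difference was 5.71 (exact permutation test of 2 against 1, p = 0.333, the smallest possible). This too is 1 clone against 1 clone. In the limma fit over all libraries 0 of the 63 windows differed (0% across the autosomes), with 15 of 63 at an unadjusted p of 0.05 against 2.25% of all windows. The negative musculus minus CAST area of the C-TSS clones was therefore not shared by every clone of the line: it was positive in 1 of the 2 C-OSN-1 clones, which carry their deletion on musculus, and in the C-Right-11.8k clone.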

How the data were processed

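Allele-specific E/L Repli-seq was deposited as log2 values of early over late reads in 50 kb windows. Per the study's methods, the authors aligned reads to N-masked mm10, assigned them to the homolog of strain 129 (the musculus allele of the text) or the CAST homolog by their variants, and scaled, quantile-normalized and loess-smoothed the deposited log2 ratios, so neighbouring windows are not independent and depth is unknown. All 138 value columns were mapped to their libraries by name, and repeat runs of a library were averaged. The clones that combine C-TSS with a deletion of segment A are not analysed here.

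The 3 components were fitted per window with limma 3.58.1 (lmFit, eBayes) over the 4 cultures, in windows complete on all 8 profiles, with Benjamini-Hochberg adjustment over all 37253 of them. The code was tested on simulated data. Areas are trapezoid sums over windows with both alleles. Single values were compared by exact two-sided permutation of cultures, libraries or clones. Genes were named by rule: every protein-coding gene (GENCODE vM21) starting between 46.5 and 50.5 Mb, read at the window of its start. Named windows were those holding the deleted segments, the extremes of each component, the earliest window and the crossings of 0. The deletions, intervals and gene lists were chosen with earlier results of these data known. Alternatives left out each culture and changed the interval, centring, moderation, threshold, missing windows and the spread used.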

Additional observations from a re-analysis of the deposited data

Results flagged for a closer look

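The right crossing of 0 on the musculus allele was at 48.84 Mb in culture 1 of C12 and between 48.98 and 48.99 Mb in the other 3 cultures, a gap large for the range of 4 values. The early span of the same allele in the same culture, 705 kb against 887 to 905 kb, stood apart in the same way. Among 42 sets of 4 values that were examined, chance alone sets apart about 1 in 20.

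The difference between deleted and unmodified allele ran in opposite directions in C12 and C4 in every culture over 4 intervals. By construction, C12 minus C4 of this difference is 2 times the strain component. The values below therefore repeat that component and are not a separate result about the deletion. C12 minus C4 was -0.37 over the test interval, where the clone means were -0.23 and 0.14, and -0.45 over the core, where they were -0.25 and 0.20. It was 0.93 over the right domain, where the clone means were 0.50 and -0.43, and 0.66 over the right flank, where they were 0.36 and -0.29. The exact permutation test gave p = 0.333 each time, the smallest that 2 against 2 cultures allow, so no difference here could pass a threshold of 0.05.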

How the results depend on the processing

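The strain and deletion components of the area kept their sign under every alternative tried, but their size depended on the interval. Strain was -2.47 over 48.0 to 49.0 Mb and -1.29 over 46.5 to 50.5 Mb, which takes in the right domain, and deletion was -0.47 and -0.09. With 1 culture left out at a time the strain component ranged from -4.22 to -3.26 and the deletion component from -1.36 to -0.40. The clone component ranged from -4.30 to 1.58 and turned sign without culture 1 of C12, and over all other alternatives it stayed below 0. Culture numbers are shared by the clones, but nothing in the labels ties them to a day or batch. The changes from culture 1 to culture 2 correlated between the clones at 0.495 on musculus, 0.484 on CAST and 0.21 for musculus minus CAST across all windows, and at 0.757 for musculus minus CAST from 46.5 to 50.5 Mb. With the replicate block, the area components are the same by construction (-3.74 for strain, -0.88 for deletion and -1.36 for clone), the exact sign-flip permutation p for strain is 0.5, the smallest that 2 pairs allow, against 0.125 to 0.25 under the other alternatives, and 32 windows passed for strain against 22 without it, with 0 for deletion and 0 for clone.

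The count of 22 strain windows ranged from 4 to 29 when 1 culture was left out: it was 4 without culture 2 of C4 and 10 without culture 1 of C4. It was 6 at an adjusted p of 0.01 and 37 with the spread pooled over all libraries. For deletion and clone the count was 0 under every alternative. The difference of the C-TSS clones from the others at the right domain ranged from -0.13 to 0.14 with 1 culture left out, negative without culture 2 of C12 (-0.12) and without culture 2 of C4 (-0.13), and it was -0.0189 after centring each profile on its median. Without 1 culture of C4, the comparison with C-Right-11.8k leaves 1 library against 1 (CAST minus musculus lower in the latter by 4.75 to 6.67), for which the exact permutation test can only give p = 1. The cause of these changes was not tested. Depth is unknown, and 17 of 80 windows, most of them in the late region left of the domain, lacked a value in at least 1 profile.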
